A study of Drosophila melanogaster with 12 samples.

Results

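Pyruvate made by glycolysis enters the mitochondria and is turned into acetyl-CoA by the pyruvate dehydrogenase complex, and the oxidative steps of the tricarboxylic acid (TCA) cycle then burn it. The transcripts examined here are those of 10 *Drosophila melanogaster* genes, out of 17185 gene IDs counted, that encode the enzymes from pyruvate entry to the 2-oxoglutarate dehydrogenase step. They were chosen by name for their place in the pathway and not by their values: *Pdha*, *Pdhb* and *muc*, which encode the E1 alpha, E1 beta and E2 subunits of pyruvate dehydrogenase, *kdn*, which encodes citrate synthase, *mAcon1*, a mitochondrial aconitase, *Idh*, the NADP-dependent isocitrate dehydrogenase, *Idh3a*, *Idh3b* and *Idh3g*, the subunits of the NAD-dependent isocitrate dehydrogenase, and *Nc73EF*, the E1 subunit of the 2-oxoglutarate dehydrogenase complex. The gene ID of *Nc73EF* now carries the symbol *Ogdh* and was found through its synonym. The choice of the 10 genes was made with earlier results of these data known.

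Citrate synthase joins acetyl-CoA to oxaloacetate, aconitase rearranges citrate to isocitrate, and isocitrate dehydrogenase oxidises isocitrate to 2-oxoglutarate. Flies, like other animals, carry both an NAD-dependent isocitrate dehydrogenase, which is a mitochondrial complex of several subunits and feeds the respiratory chain, and an NADP-dependent enzyme encoded by a separate gene, which is a source of NADPH for biosynthesis and antioxidant defence. Pyruvate dehydrogenase is switched off by phosphorylation of its E1 alpha subunit by a kinase and switched on again by a phosphatase.

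The RNA was extracted from larvae grown at 25 °C for 60 hours, and the study compared larvae lacking Gpdh1, with or without Ldh, with genetically matched heterozygous controls, to ask how the loss of both enzymes alters larval gene expression. Gpdh1 is a glycerol-3-phosphate dehydrogenase and Ldh is lactate dehydrogenase, and both regenerate cytosolic NAD+. There were 4 groups with 3 libraries each, all in a *w[1118]* background: *Gpdh1* heterozygotes with *Gpdh1*[12] over a wild-type chromosome, *Gpdh1* mutants with *Gpdh1*[12] over *Gpdh1*[14], double heterozygotes with *Gpdh1*[12] and *Ldh*[16] each over a wild-type chromosome, and double mutants with *Gpdh1*[12] over *Gpdh1*[14] and *Ldh*[16] over *Ldh*[17]. All 12 libraries therefore carry *Gpdh1*[12], no group is wild type, and larvae that lack Ldh alone were not analysed here. The labels call the larvae mid-L3, whereas the study's text places the RNA-seq samples at mid-L2, and the labels number the *Gpdh1* alleles differently from the study's text.

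Gene counts per library lay between 22339930 and 26605495. *Ldh* fell to 3.95 ± 0.33 CPM (counts divided by library size and scaled; mean ± SD, n = 3) in double mutants against 447 ± 8.53 in double heterozygotes. It also fell in *Gpdh1* mutants, which carry no labelled *Ldh* allele, to 398 ± 18.8 from 508 ± 12.5 CPM (log2 -0.35, edgeR adjusted p = 0.00523), and it was lower in double heterozygotes than in *Gpdh1* heterozygotes by a log2 difference of -0.19 (adjusted p = 0.0473). *Gpdh1* was at 267 ± 31.4 CPM in *Gpdh1* mutants and at 61.6 ± 0.434 CPM in double mutants, against 482 ± 61.2 and 483 ± 32.3 in their controls, so the same labelled alleles left different amounts of transcript in the mutant groups. Replicate 2 of the double heterozygotes stood apart from its group, with a chi-square per degree of freedom of 85.5 and 118 against replicates 1 and 3, which gave 23.9 with each other. Double mutant replicates 1 and 2 were the closest pair, at 2.42, and every pair exceeded 1, the value that counting error alone gives. The study's text calls the libraries of a genotype biological replicates, each from pooled larvae, while the labels do not say whether they came from separate cultures, and p-values measure the spread between these samples. In whole larvae, fewer cells of a type and less RNA per cell cannot be told apart.

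The levels are CPM, the counts of a gene relative to the total of its library after scaling by the trimmed mean of M-values (TMM). Fold changes are on the log2 scale with the standard error (SE), and calls were made at an adjusted p under 0.05 by edgeR's quasi-likelihood test, with Benjamini-Hochberg adjustment over all genes tested. All 10 genes passed the filter on low counts in every comparison, and none had a log2 fold change beyond 1 in any of them.

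**Figure D1:**
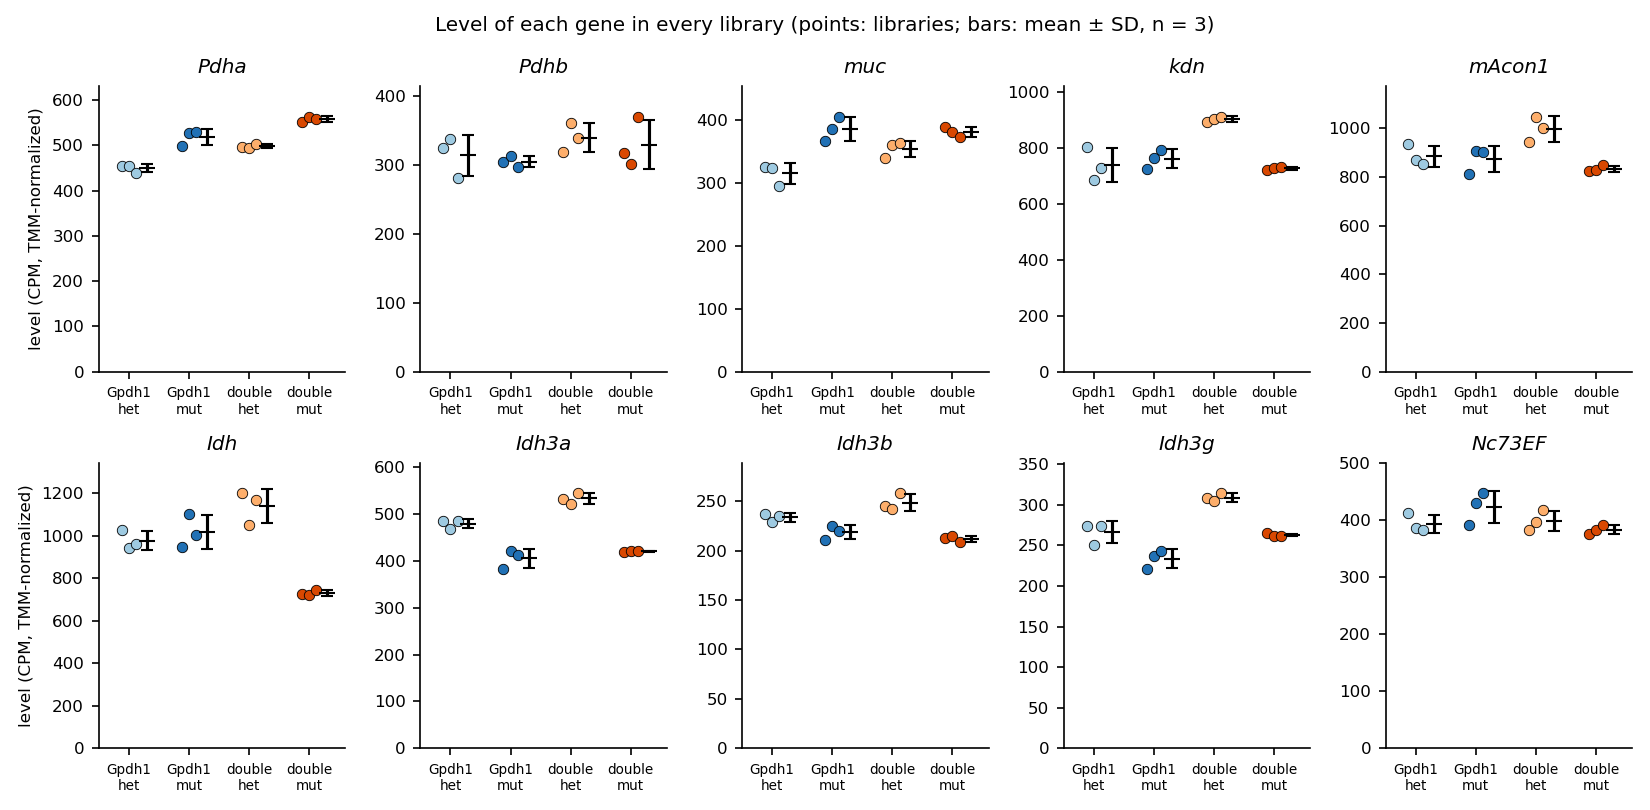
Level of each of the 10 genes in every library, in CPM on axes that start at 0. Points are libraries and the bars beside them give the mean ± SD of 3 libraries. The *Idh* points of the double mutants, at 723 to 747 CPM, sit below all other *Idh* points, and the *Idh3a* points of both mutant groups sit below those of both control groups.

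*Idh* fell in the larvae that lacked both Gpdh1 and Ldh, by more than any other gene of the set. Its level was 1028, 945 and 962 CPM in the *Gpdh1* heterozygotes and 948, 1105 and 1005 CPM in the *Gpdh1* mutants, which overlapped. It was 1202, 1050 and 1168 CPM in the double heterozygotes. In the double mutants it was 725, 723 and 747 CPM. The double mutant libraries were thus the 3 lowest of all 12, and the highest of the 12 libraries held 1.66 times the lowest, the widest range among the 10 genes.

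*Idh* fell in double mutants relative to double heterozygotes, with a log2 fold change of -0.65 (SE 0.0637, edgeR adjusted p = 0.000351). In *Gpdh1* mutants the change was 0.06 (95% interval -0.12 to 0.25, edgeR adjusted p = 0.554). The difference between the contrasts was itself tested and was -0.71 (SE 0.1, 95% interval -0.93 to -0.48, edgeR adjusted p = 0.000812). *Idh* was also lower in double mutants than in *Gpdh1* mutants, by a log2 difference of -0.49 (SE 0.071, edgeR adjusted p = 0.000384). Leaving out each library in turn gave a difference between contrasts from -0.76 to -0.61, with adjusted p from 0.000301 to 0.00534.

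*Idh* lies on chromosome arm 3L at 8356404 to 8360906 on the minus strand (BDGP6.54 annotation), 2.09 Mb from *Ldh*, on a chromosome whose alleles differ between the groups. Of the genes tested within 2.5 Mb of *Ldh*, 49.9% were called in double mutants against 51.2% elsewhere, and 27.8% against 25.5% had a called difference between contrasts. The shares were 33.4% against 26.1% between the control groups and 44.4% against 38.7% between the mutant groups, where the *Ldh* alleles differ, and 41.5% against 38% in *Gpdh1* mutants, where they do not. The window was chosen after the values were seen, and what a linked variant would add to the level of *Idh* was not tested.

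All 3 subunits of the NAD-dependent isocitrate dehydrogenase fell in double mutants, and of these *Idh3a* also fell in *Gpdh1* mutants. *Idh3a*, whose product is the catalytic subunit in mammals, was at 486, 468 and 486 CPM in *Gpdh1* heterozygotes and at 383, 421 and 414 CPM in *Gpdh1* mutants. It was at 533, 523 and 545 CPM in double heterozygotes and at 419, 422 and 421 CPM in double mutants. No mutant library reached its controls in either cross. *Idh3a* fell in *Gpdh1* mutants by a log2 change of -0.24 (SE 0.0618, edgeR adjusted p = 0.0217) and in double mutants by -0.35 (SE 0.0423, adjusted p = 0.000812). The call in *Gpdh1* mutants was lost without *Gpdh1* heterozygote replicate 1 (log2 -0.23, adjusted p = 0.0578), *Gpdh1* mutant replicate 1 (-0.19, 0.0812) or *Gpdh1* mutant replicate 3 (-0.24, 0.0657), and with library totals in place of TMM (-0.08, adjusted p = 0.332). That call was also lost with the replicate number as a block. Between the crosses the change of *Idh3a* differed by -0.11 (95% interval -0.26 to 0.05, edgeR adjusted p = 0.287).

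*Idh3b* and *Idh3g* encode the other subunits of the same enzyme, which are regulatory in mammals. *Idh3b* was at 237, 229 and 235 CPM in *Gpdh1* heterozygotes, 211, 225 and 220 CPM in *Gpdh1* mutants, 245, 243 and 258 CPM in double heterozygotes and 213, 215 and 209 CPM in double mutants. *Idh3g* was at 274, 250 and 274 CPM, then 221, 237 and 243 CPM, then 308, 305 and 314 CPM, then 265, 262 and 262 CPM in the same order of groups. For both genes every mutant library lay below every library of its own controls. In double mutants both genes fell, *Idh3b* by a log2 change of -0.24 (SE 0.0479, edgeR adjusted p = 0.00703) and *Idh3g* by -0.24 (SE 0.0418, adjusted p = 0.00371). In *Gpdh1* mutants the values were -0.09 (edgeR adjusted p = 0.228) and -0.18 (adjusted p = 0.0671), and *Idh3g* passed only when *Gpdh1* heterozygote replicate 2 was left out (-0.23, adjusted p = 0.0482) or all 12 libraries shared 1 fit (-0.19, adjusted p = 0.0204). The differences between the contrasts were -0.14 for *Idh3b* (95% interval -0.29 to 0.01) and -0.05 for *Idh3g* (95% interval -0.22 to 0.12), and neither passed the test (edgeR adjusted p = 0.157 and 0.67). The *Idh3g* locus overlaps 158 bp of *RpL27* exons on the opposite strand, and the strand setting of the counting is not given in the sources used here.

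Citrate synthase and aconitase, the steps before isocitrate dehydrogenase, differed from their controls in the double mutants. *kdn* was at 804, 685 and 728 CPM in *Gpdh1* heterozygotes and at 725, 766 and 793 CPM in *Gpdh1* mutants. It was at 893, 905 and 913 CPM in double heterozygotes and at 722, 730 and 732 CPM in double mutants. The double heterozygotes were the highest group, above all 9 other libraries. *kdn* fell in double mutants by a log2 change of -0.32 (SE 0.0399, edgeR adjusted p = 0.000941), while the value in *Gpdh1* mutants was 0.05 (95% interval -0.14 to 0.24, adjusted p = 0.67). The crosses differed by -0.36 (SE 0.0883, edgeR adjusted p = 0.0132). It no longer passed without *Gpdh1* mutant replicate 3 (log2 -0.30, adjusted p = 0.0541), double mutant replicate 1 (-0.33, 0.0561) or double mutant replicate 2 (-0.33, 0.0505). The control groups differed too, with *kdn* higher in double heterozygotes than in *Gpdh1* heterozygotes by 0.29 (SE 0.0625, edgeR adjusted p = 0.00788), whereas double mutants and *Gpdh1* mutants differed by -0.07 (95% interval -0.21 to 0.06, adjusted p = 0.379).

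*mAcon1* was at 933, 868 and 851 CPM in *Gpdh1* heterozygotes and 812, 905 and 904 CPM in *Gpdh1* mutants, which overlapped. It was at 941, 1047 and 1001 CPM in double heterozygotes and 824, 830 and 847 CPM in double mutants, which did not overlap. It fell in double mutants by a log2 change of -0.26 (SE 0.0523, edgeR adjusted p = 0.00631), with -0.01 (adjusted p = 0.908) in *Gpdh1* mutants. The difference of -0.25 between the contrasts missed the threshold (95% interval -0.44 to -0.05, edgeR adjusted p = 0.0637) and passed it without *Gpdh1* heterozygote replicate 1 (log2 -0.29, adjusted p = 0.0416) or *Gpdh1* mutant replicate 1 (-0.27, 0.0489).

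Of the pyruvate dehydrogenase subunits, *Pdha* rose in both mutant groups, *muc* rose in *Gpdh1* mutants and *Pdhb* was called in neither. *Pdha* was at 455, 453 and 439 CPM in *Gpdh1* heterozygotes, 497, 528 and 528 CPM in *Gpdh1* mutants, 496, 495 and 504 CPM in double heterozygotes and 551, 563 and 558 CPM in double mutants. Mutants were above their own controls in both crosses without overlap. *Pdha* rose in *Gpdh1* mutants by a log2 change of 0.21 (SE 0.0577, edgeR adjusted p = 0.0255) and in double mutants by 0.16 (SE 0.0403, adjusted p = 0.0182), and the crosses differed by -0.05 (95% interval -0.19 to 0.09, adjusted p = 0.592). Both calls were close to the threshold. The call in *Gpdh1* mutants was lost when any 1 of the libraries other than *Gpdh1* mutant replicate 1 was left out (log2 0.19 to 0.22, adjusted p = 0.0557 without heterozygote replicate 1, 0.0533 without 2, 0.0622 without 3, 0.072 without mutant replicate 2 and 0.0803 without 3). The call in double mutants was lost without double mutant replicate 1 (0.17, adjusted p = 0.0642) or 2 (0.15, 0.0773).

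*muc* was at 326, 325 and 296 CPM in *Gpdh1* heterozygotes and 367, 386 and 406 CPM in *Gpdh1* mutants. It was at 340, 360 and 364 CPM in double heterozygotes and 389, 381 and 374 CPM in double mutants. The mutant libraries lay above their controls in both crosses. *muc* rose in *Gpdh1* mutants by a log2 change of 0.30 (SE 0.0682, edgeR adjusted p = 0.0136). In double mutants the value was 0.10 (95% interval -0.02 to 0.21, edgeR adjusted p = 0.135), and the difference of -0.20 did not pass the test (adjusted p = 0.11). The gene lies 1.48 Mb from *Gpdh1* on chromosome arm 2L, on the chromosome that carries the *Gpdh1* alleles.

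*Pdhb*, the partner of *Pdha* in the E1 enzyme, passed the test in none of the comparisons. Its level was 324, 338 and 281 CPM in *Gpdh1* heterozygotes, 304, 313 and 297 CPM in *Gpdh1* mutants, 318, 361 and 339 CPM in double heterozygotes and 317, 302 and 370 CPM in double mutants. The last group holds the widest spread of the 10 genes, with an SD of 10.9% of the mean, against 1.03% from counting error alone. The log2 change was -0.04 (95% interval -0.23 to 0.15, edgeR adjusted p = 0.728) in *Gpdh1* mutants and -0.05 (95% interval -0.27 to 0.17, adjusted p = 0.669) in double mutants.

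*Nc73EF*, the last enzyme of the set, varied least, with a ratio of 1.19 between its highest and lowest library. It was at 411, 385 and 382 CPM in *Gpdh1* heterozygotes, 391, 429 and 447 CPM in *Gpdh1* mutants, 383, 395 and 418 CPM in double heterozygotes and 376, 382 and 391 CPM in double mutants. Mutants overlapped controls in both crosses. The log2 change was 0.11 (95% interval -0.06 to 0.28, edgeR adjusted p = 0.266) in *Gpdh1* mutants and -0.07 (95% interval -0.19 to 0.06, adjusted p = 0.322) in double mutants. Its exons overlap those of other genes over 119 bp on the same strand and 294 bp on the opposite strand.

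**Figure D2:**
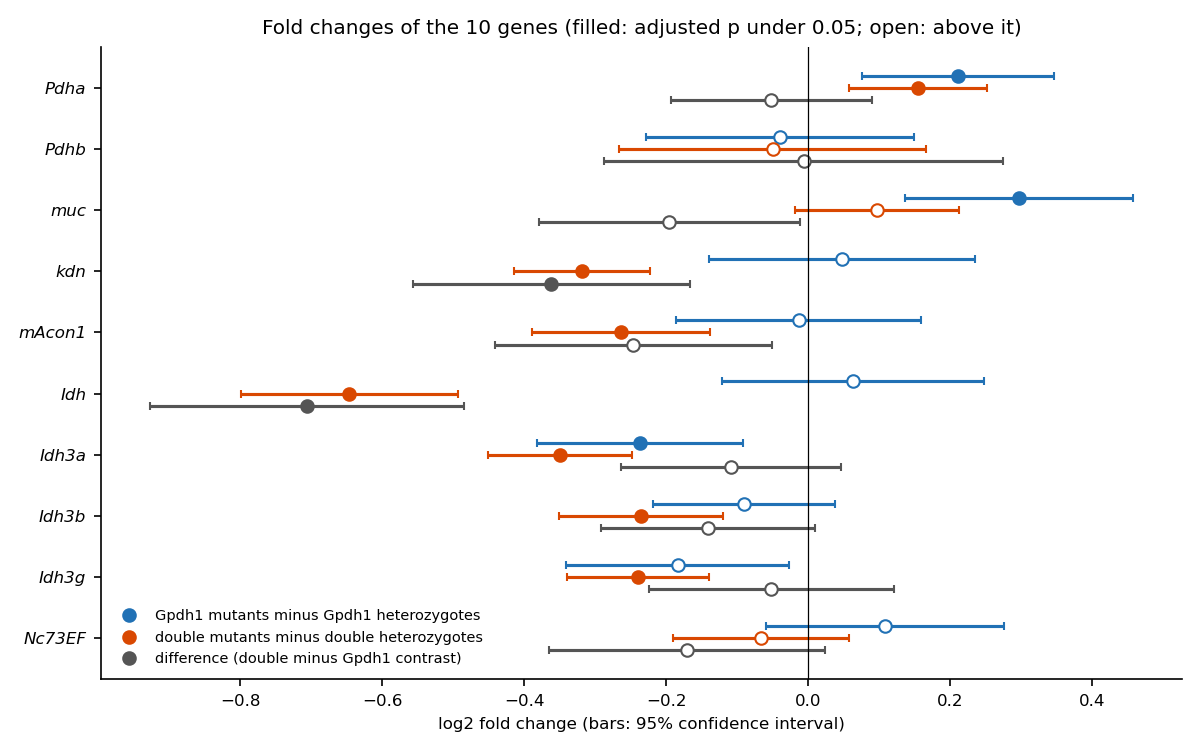
The log2 fold change of each gene (horizontal axis) with its 95% confidence interval in *Gpdh1* mutants, in double mutants, and the difference between these contrasts. Filled points have an adjusted p under 0.05. In double mutants 6 filled points lie below 0 and 1 above it, and *Idh* at -0.65 lies farthest from 0 of all changes of mutants against controls.

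Counted over the set, 2 of the 10 genes rose (*Pdha* and *muc*) and 1 fell (*Idh3a*) in *Gpdh1* mutants, where 17.9% of the 10592 genes tested rose and 20.2% fell. With library totals in place of TMM, which moved the median of all genes by 0.16 in this contrast, 4 of the 10 rose and 0 fell, where 33.7% of all genes rose and 11.9% fell. The median log2 change of the 10 genes was 0.02, against 0.01 over all genes tested, and 5 were positive and 5 negative.

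In double mutants 1 gene rose (*Pdha*) and 6 fell (*kdn*, *mAcon1*, *Idh*, *Idh3a*, *Idh3b* and *Idh3g*), where 25.3% of the 10650 genes tested rose and 25.9% fell. With library totals, which moved the median of all genes by 0.16 here too, 2 rose (*Pdha* and *muc*) and 3 fell (*kdn*, *Idh* and *Idh3a*), where 34.8% of all genes rose and 13.7% fell. The median was -0.24 against -0.03 over all genes. Without the double heterozygote replicate that stood apart, the same counts of 1 and 6 were obtained, with *Idh* at -0.68, where 28.9% of all genes rose and 28.7% fell. When the double mutant libraries were summed into 1, *Idh* was at log2 -0.65, and the other 5 genes that fell kept their direction. The spread then came from the double heterozygotes alone, so this fit cannot settle whether the 6 calls hold.

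For the difference between the contrasts, 0 of the 10 genes were called higher, where 12.0% of the 10880 genes tested were, and 2 were called lower (*Idh* and *kdn*), where 13.5% were. All 10 values were negative, from -0.71 to -0.01, with a median of -0.16 against -0.01 over all genes. The value of *Pdhb* was the one nearest 0 and turned positive under several other settings, up to 0.08 without double mutant replicate 2, and that of *Idh3g* reached 0.006 without *Gpdh1* mutant replicate 3. Groups did not overlap for 5 of the 10 genes in *Gpdh1* mutants against their controls, where 53.6% of all genes tested did not, and for 8 of the 10 in double mutants, where 62% did not.

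The control groups were compared because the contrasts rest on them. *Pdha*, *kdn*, *Idh*, *Idh3a* and *Idh3g* were higher in double heterozygotes than in *Gpdh1* heterozygotes, which is 5 of 10 genes where 14.1% of all genes were higher, and 0 were lower, where 12.3% were. *Idh* was higher by a log2 difference of 0.22 (SE 0.0709, edgeR adjusted p = 0.0431), *Idh3g* by 0.21 (SE 0.0554, adjusted p = 0.0173) and *Idh3a* and *Pdha* by 0.15 each (adjusted p = 0.0458 and 0.034). All 10 values were positive, with a median of 0.16 against 0.03 over all genes, and the smallest, *Nc73EF* (0.02), turned negative under other settings, down to -0.0153 without double heterozygote replicate 3. This count rested on values near the threshold: it was 1 to 4 when 1 library was left out (4 without *Gpdh1* heterozygote replicate 1, 1 without 2, 2 without 3, and 2, 3 and 2 without double heterozygote replicates 1, 2 and 3) and 2 with RLE scaling, with no filter or with at least 10 counts in every library. Of all genes, 8.86% to 13.6% were higher without 1 library and 9.19% to 12.4% with the other settings. The calls of *Pdha* and *Idh3a* were lost whichever of the 6 control libraries was left out (highest edgeR adjusted p 0.0839 and 0.122). That of *Idh* held in 2 of the 6 cases, without *Gpdh1* heterozygote replicate 1 or double heterozygote replicate 2 (highest adjusted p 0.131), and that of *Idh3g* was lost without *Gpdh1* heterozygote replicate 2 (0.17, adjusted p = 0.0614). Between the mutant groups, 1 gene was higher in double mutants (*Idh3g*, log2 0.16, SE 0.0554, edgeR adjusted p = 0.0393), where 18.9% of all genes were, and 1 was lower (*Idh*), where 20.0% were. The call of *Idh3g* was lost when any library but *Gpdh1* mutant replicate 3 was left out (0.12 to 0.18, highest adjusted p 0.147). Without *Gpdh1* mutant replicate 1, *Nc73EF* was called lower as well (log2 -0.20, adjusted p = 0.0327; -0.15, adjusted p = 0.0779 with all libraries).

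Ratios of genes within a library need no scaling between libraries. The ratio of *Idh* to *Idh3a*, the NADP-dependent against the NAD-dependent enzyme, was 1.08, 1.01 and 0.99 on the log2 scale in *Gpdh1* heterozygotes and 1.31, 1.39 and 1.28 in *Gpdh1* mutants. It was 1.17, 1.01 and 1.10 in double heterozygotes and 0.79, 0.78 and 0.83 in double mutants. The single mutants lay above all other libraries and the double mutants below all others, with no overlap, and the group means were 1.03 ± 0.05, 1.33 ± 0.06, 1.09 ± 0.08 and 0.80 ± 0.03 (SD, n = 3) in this order. The ratio used count levels that were not divided by transcript length, so that only its change between groups can be read. Within the pyruvate dehydrogenase E1 enzyme, the ratio of *Pdhb* to *Pdha* averaged -0.52 ± 0.11, -0.77 ± 0.06, -0.55 ± 0.09 and -0.76 ± 0.16 in the same order. It was lower in *Gpdh1* mutants than in every one of their controls and overlapped in the other cross. The ratio of *muc* to *Pdha* averaged between -0.55 and -0.42 in all groups. It was higher in every *Gpdh1* mutant library than in all of their controls and overlapped in the other cross. The ratio of *Idh3b* to *Idh3a* was -1.04 ± 0.01 in *Gpdh1* heterozygotes and -0.89 ± 0.03 in *Gpdh1* mutants, and -1.10 ± 0.02 in double heterozygotes and -0.99 ± 0.02 in double mutants, without overlap in either cross. *Idh3g* to *Idh3a* averaged -0.85 ± 0.04, -0.80 ± 0.03, -0.79 ± 0.01 and -0.68 ± 0.01 in the order used above. This ratio was higher in every double mutant library than in all of their controls and overlapped in the other cross.

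**Figure D3:**
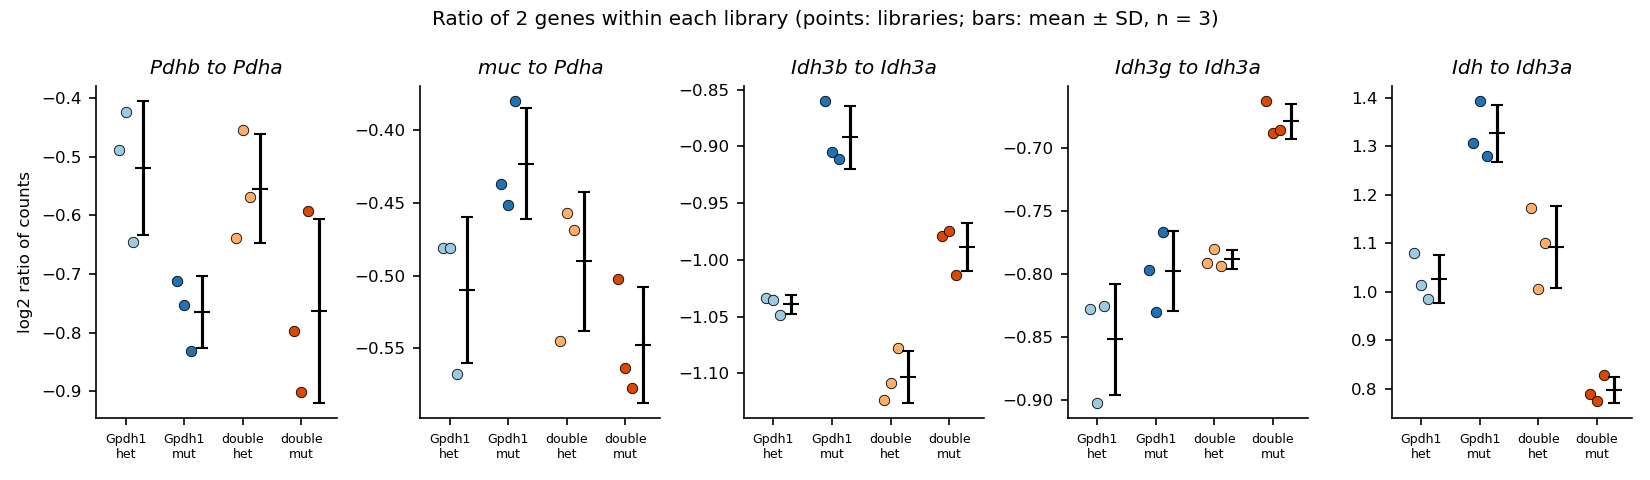
The log2 ratio of CPM between pairs of genes in each library (points), with the mean ± SD of 3 libraries (bars). The axes differ between panels and do not start at 0. In the last panel the *Gpdh1* mutants lie highest, with a mean of 1.33, and the double mutants lowest, with a mean of 0.80.

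Divided by the length of the gene's exons in the BDGP6.54 annotation, *Idh* was the most abundant of the 10 transcripts in every group, with 402 ± 17.9, 419 ± 32.6, 468 ± 32.8 and 301 ± 5.56 CPM per kilobase in *Gpdh1* heterozygotes, *Gpdh1* mutants, double heterozygotes and double mutants. *Nc73EF* was the least abundant, between 71.6 and 79.0 CPM per kilobase on average. *mAcon1* and *kdn* came after *Idh* and overlapped in every group but the double mutants, where the order was *Idh*, *mAcon1*, *Pdha*, *kdn*, *Idh3a*, *Pdhb*, *muc*, *Idh3g*, *Idh3b* and *Nc73EF*. In that group *Pdha* and *kdn* overlapped, as did *Pdhb* and *muc*. In both control groups *Idh3a* stood above *Pdha* per kilobase, and in both mutant groups the order was the opposite, without overlap.

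The genes also differed in how they moved together over the 12 libraries. Of the 45 pairs, *Idh3a* and *Idh3b* had the highest Pearson r of log2 CPM (0.942), and *Idh3a* and *Idh3g* reached 0.909, and *Pdha* and *muc* 0.89, whereas *Pdhb* reached 0.167 with *Pdha* and 0.12 with *muc*. The median over the pairs was 0.309 and the lowest value was -0.548 (*Pdha* and *Idh3b*). The libraries share their group, so these values describe group differences and spread together and carry no test. Among 7140 genes with at least 10 CPM on average, those most like *Idh* were *ImpL1* (r = 0.959), *l(2)37Bb* (0.959) and *CG6026* (0.958). Those most like *kdn* were *eIF2Bdelta* (0.95), *mi* (0.936) and *Nrd1* (0.935), and those most like *Pdha* were *mino* (0.986), *thetaTry* (0.984) and *CG11178* (0.981). The nearest to *Nc73EF* were *CG13917* (0.882), *cv-d* (0.863) and *RhoGAP92B* (0.797).

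The rest of the pathway was taken from a list of 33 symbols, 32 of which matched a gene and 24 of which passed the filter. In *Gpdh1* mutants 3 rose, 9 fell and 12 were not called, and in double mutants 3 rose, 15 fell and 6 were not called, where 17.9% of all genes tested rose and 20.2% fell in the first contrast and 25.3% rose and 25.9% fell in the second. The median log2 change was -0.10 and -0.24, against 0.01 and -0.03 over all genes tested. With library totals, where the median of all genes moved by 0.16, 7 rose and 5 fell in *Gpdh1* mutants and 5 rose and 7 fell in double mutants (all genes: 33.7% and 11.9%, then 34.8% and 13.7%). The difference between the contrasts was called higher for 1 (*Pdk*) and lower for 4 (*PCB*, *Men*, *SdhA* and *SdhD*), where 12.0% of the 10880 genes tested were higher and 13.5% lower. *SdhA* and *SdhD* missed the threshold with RLE scaling (-0.23 and -0.27, edgeR adjusted p = 0.0506 and 0.0725), as did *SdhD* with library totals (-0.30, adjusted p = 0.0708).

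The kinase that acts on the *Pdha* product rose in both mutant groups, whereas the calls of the phosphatase depended on the scaling. *Pdk*, the kinase, was at 64.6, 66.0 and 66.3 CPM in *Gpdh1* heterozygotes, 82.6, 92.6 and 79.9 CPM in *Gpdh1* mutants, 54.1, 50.8 and 58.1 CPM in double heterozygotes and 93.8, 88.1 and 89.3 CPM in double mutants. It rose in *Gpdh1* mutants by a log2 change of 0.38 (SE 0.0677, edgeR adjusted p = 0.00533) and in double mutants by 0.73 (SE 0.0654, adjusted p = 0.000241), and the difference of 0.35 passed the test (adjusted p = 0.019). *Pdk* was also lower in double heterozygotes than in *Gpdh1* heterozygotes, with a log2 difference of -0.28 (edgeR adjusted p = 0.0126). The libraries of the mutant groups overlapped, with means of 85.1 CPM in *Gpdh1* mutants and 90.4 CPM in double mutants. *Pdp*, the phosphatase, fell, with -0.23 (SE 0.0678, edgeR adjusted p = 0.034) in *Gpdh1* mutants and -0.27 (SE 0.0491, adjusted p = 0.00448) in double mutants, and neither call held with library totals (-0.07 and -0.11, adjusted p = 0.38 and 0.259). These are transcript levels, and the phosphorylation of the enzyme was not measured.

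Of the subunits that complete the dehydrogenase complexes, *CG7430*, the E3 dihydrolipoyl dehydrogenase, did not pass the test (log2 0.01 in *Gpdh1* mutants and -0.09 in double mutants, edgeR adjusted p = 0.924 and 0.191). *CG5214*, the E2 partner of *Nc73EF*, fell in both, with -0.35 (SE 0.0668, edgeR adjusted p = 0.00664) and -0.51 (SE 0.0616, adjusted p = 0.000793), where *Nc73EF* had 0.11 and -0.07. Later in the cycle, *ScsbetaG*, a subunit of succinyl-CoA synthetase, fell in both, with -0.60 (SE 0.0773, edgeR adjusted p = 0.00157) and -0.45 (SE 0.0425, adjusted p = 0.00031). *Scsalpha1*, the alpha subunit, fell too, with -0.27 (edgeR adjusted p = 0.019; -0.12, 0.162 with library totals) and -0.40 (adjusted p = 0.000724). *SdhA*, the flavoprotein of succinate dehydrogenase, fell in double mutants (-0.34, edgeR adjusted p = 0.000713; -0.08, adjusted p = 0.328 in *Gpdh1* mutants), and the difference was -0.25 (adjusted p = 0.026).

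*Men*, a malic enzyme that yields pyruvate and NADPH, rose by 0.88 (SE 0.0868, edgeR adjusted p = 0.000707) in *Gpdh1* mutants and by 0.40 (SE 0.0572, adjusted p = 0.00169) in double mutants, a difference of -0.48 (adjusted p = 0.00774). *PCB*, pyruvate carboxylase, fell in double mutants, with -0.40 (SE 0.0604, edgeR adjusted p = 0.00199; -0.24, 0.0542 with library totals), against 0.28 (adjusted p = 0.0719) in *Gpdh1* mutants and a difference of -0.68 (adjusted p = 0.00398). The control groups differed too, with *PCB* higher in double heterozygotes than in *Gpdh1* heterozygotes by 0.29 (SE 0.0929, edgeR adjusted p = 0.0411). Double mutants differed from *Gpdh1* mutants by -0.39 (SE 0.093, edgeR adjusted p = 0.00704). *Got2*, an aspartate aminotransferase, fell in both mutant groups, with -0.60 (SE 0.0849, edgeR adjusted p = 0.00214) and -0.65 (SE 0.0532, adjusted p = 0.000168). *Mdh1*, a malate dehydrogenase, fell in both, with -0.65 (SE 0.0843, edgeR adjusted p = 0.0016) and -0.43 (SE 0.0676, adjusted p = 0.00243). *ATPCL*, the ATP citrate lyase that exports acetyl units for lipid synthesis, rose in *Gpdh1* mutants by 0.61 (SE 0.0946, edgeR adjusted p = 0.0031) and had 0.25 (adjusted p = 0.163; 0.42, 0.0159 with library totals) in double mutants.

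**Figure D4:**
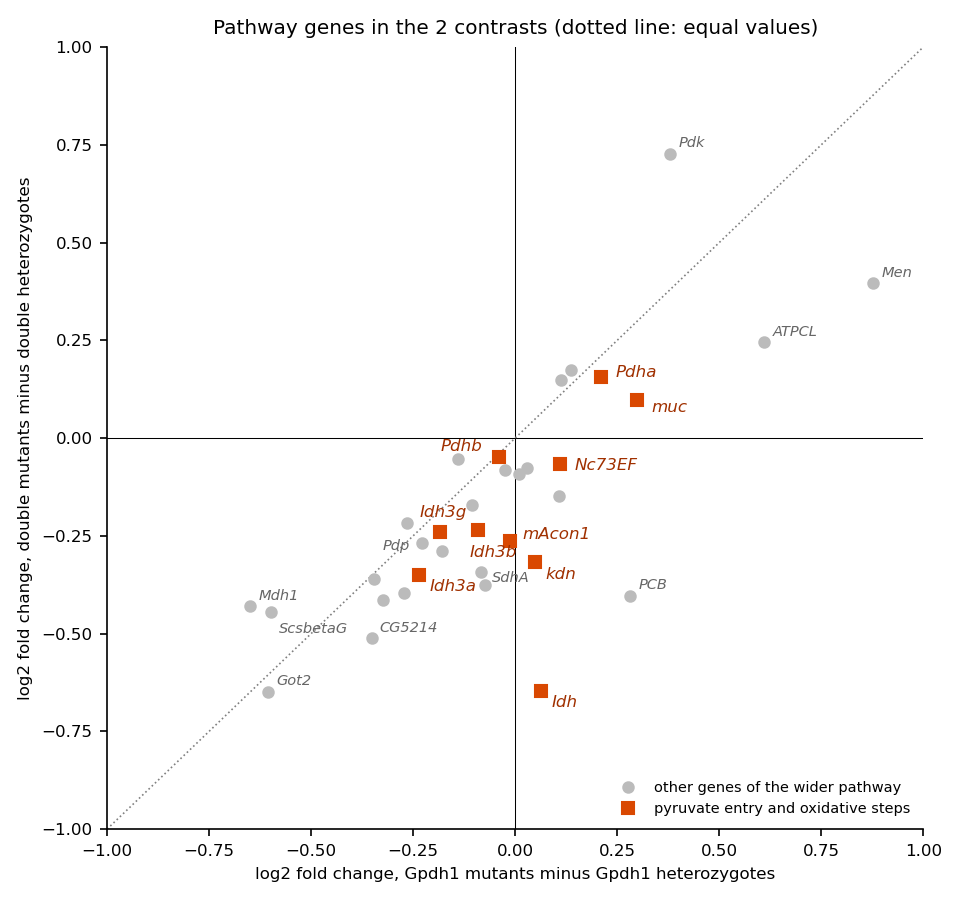
The log2 fold change in *Gpdh1* mutants (horizontal axis) against that in double mutants (vertical axis) for the 10 genes (squares) and 24 other pathway genes (circles), with a dotted line of equal values. *Idh* (0.06 and -0.65) and *PCB* (0.28 and -0.40) lie far below the line, and *Pdk* (0.38 and 0.73) lies above it.

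*Idh* was also set beside other sources of NADPH. *Zw*, glucose-6-phosphate dehydrogenase, fell in *Gpdh1* mutants (log2 -0.55, SE 0.142, edgeR adjusted p = 0.0207), with 0.07 (adjusted p = 0.743) in double mutants and a difference of 0.62 that did not pass (adjusted p = 0.0721; 0.63, 0.0452 with library totals). *Pgd*, the next dehydrogenase of the pentose phosphate pathway, had 0.19 (edgeR adjusted p = 0.329) and 0.03 (adjusted p = 0.746). The shares of all genes given above for the wider pathway are also the background of the counts that follow. Of 6 genes tested from a list of NADPH enzymes (*Zw*, *Pgd*, *Men*, *Men-b*, *Nmdmc* and *pug*), 2 rose and 2 fell in *Gpdh1* mutants. In double mutants 2 rose and 1 fell (0 with library totals). *Nmdmc*, by its name an NAD-dependent dehydrogenase, is part of these counts. It averaged 12.9, 26.1, 12.5 and 16.8 CPM in *Gpdh1* heterozygotes, *Gpdh1* mutants, double heterozygotes and double mutants. Of 8 genes of mitochondrial biogenesis and mitochondrial carriers, 1 rose and 2 fell in *Gpdh1* mutants, and 0 rose and 3 fell in double mutants (*TFAM*, *porin* and *sesB*), whereas with library totals 0 fell in *Gpdh1* mutants, and in double mutants 3 rose and 3 fell. *srl*, the fly PGC-1 homologue, was at -0.12 and -0.20 (edgeR adjusted p = 0.327 and 0.0538). *ERR*, a nuclear receptor known in flies for switching on larval carbohydrate metabolism, fell in *Gpdh1* mutants (-0.26, edgeR adjusted p = 0.0413; -0.10, 0.324 with library totals), had 0.17 (adjusted p = 0.0683; 0.34, 0.0159 with library totals) in double mutants and differed between the contrasts by 0.44 (adjusted p = 0.0104).

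Markers of larval tissues differed between the groups alongside these genes, where 17.9% of all genes tested rose and 20.2% fell in *Gpdh1* mutants and 25.3% rose and 25.9% fell in double mutants. With library totals these shares were 33.7% and 11.9%, then 34.8% and 13.7%. Of 13 muscle markers, 11 fell in *Gpdh1* mutants (6 with library totals) and 12 in double mutants, and their summed level ranged from 71263 to 74322 CPM in *Gpdh1* heterozygotes, 51669 to 58376 in *Gpdh1* mutants, 64071 to 71031 in double heterozygotes and 51564 to 52945 in double mutants. Of 9 midgut markers, 6 rose in *Gpdh1* mutants and 8 in double mutants, with summed levels of 398 to 797, 993 to 1257, 871 to 981 and 3188 to 3360 CPM in the same order of groups. Of 6 neuron markers, 3 (6 with library totals) and 4 (6) rose, with sums of 178 to 186, 207 to 230, 174 to 189 and 217 to 248 CPM. The 6 fat body markers summed to 8429 to 12141, 3916 to 4912, 6184 to 9802 and 4114 to 4363 CPM, and 5 of them were tested, of which 2 rose and 2 fell in *Gpdh1* mutants and 3 rose and 2 fell in double mutants. The 7 cuticle markers summed to 1261 to 2045, 319 to 389, 613 to 823 and 810 to 825 CPM, and of the 5 tested 5 fell in *Gpdh1* mutants and 1 rose and 1 fell in double mutants. The difference between the contrasts was called higher for 2 of 9 midgut, 4 of 5 cuticle and 1 of 6 neuron markers and for 0 of the 13 muscle and 5 fat body markers, and lower for 0 of them, where 12.0% of all genes were called higher and 13.5% lower. The part of tissue shares and developmental stage in the levels of the 10 genes was not tested. The X-linked genes *Pdha*, *kdn* and *Idh3a* stood beside *roX1* and *roX2*, male-specific dosage compensation RNAs. *roX1* averaged 113, 164, 143 and 188 CPM in *Gpdh1* heterozygotes, *Gpdh1* mutants, double heterozygotes and double mutants. In both crosses every mutant library of *roX1* lay above all of its own controls. *roX2* averaged 4.76, 6.91, 5.70 and 6.29 CPM in the same order, highest in *Gpdh1* mutants. Its double mutant and double heterozygote libraries overlapped. The part of the sex ratio in the levels of these X-linked genes was not tested.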

How the data were processed

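The authors deposited raw counts per gene, for which the submitters' notes name bcl2fastq (2.20.0.422) and cutadapt (1.12) before alignment by HISAT2 (2.1.0) and counting by HTSeq (0.9.0). Strand setting and genome build are not given in the sources used here, and the study's methods name Salmon, tximport and DESeq2 instead. Reads without a gene (0.736% to 1.04%) and ambiguous reads (1.97% to 2.17% of the counter's total) were left out. Alignments that were not unique (8.06% to 14.7% of that total, highest in *Gpdh1* heterozygote replicate 3) were left out too. Each contrast of mutants with controls was fitted on its own 6 libraries and the other comparisons on all 12 with edgeR 4.0.16 in R 4.3.3 (TMM, low-count filter with minimum count 10, quasi-likelihood F test, Benjamini-Hochberg). Levels used TMM over all 12 libraries and a prior count of 2 for log2 values. Scripts were tested on simulated data. Genes, lists and tests were chosen with earlier results of these data known. All 10 genes are named, and of the pathway list the up to 5 smallest adjusted p in each contrast of mutants with controls and in their difference plus *Pdk*, *Pdp*, *CG7430* and *CG5214*. *Fum1* and *Nnt* matched no gene. Alternatives were RLE scaling, library totals, DESeq2 1.42.0, other filters, a fold limit of log2 1, 1 fit of all libraries, the replicate number as a block, summed double mutant libraries and leaving out each library, and for the other lists, added after the data were seen, both scalings. Promoter and protein sequences were not analysed here.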

Additional observations from a re-analysis of the deposited data

Results flagged for a closer look

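The log2 fold change of *Idh* differed between the crosses by -0.71 (edgeR test of the difference itself, adjusted p = 0.000812), with the 3 double mutant libraries below all 9 others. The log2 fold change of *kdn* differed by -0.36 (edgeR adjusted p = 0.0132), where the double heterozygotes were above all 9 others. The call of *kdn* held in 9 of the 12 fits that left out 1 library (highest edgeR adjusted p 0.0561).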

How the results depend on the processing

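Of the 10 fold changes recomputed under all alternatives but the fold limit, 123 of 140 values in double mutants, 108 of 130 in *Gpdh1* mutants, 171 of 190 for the difference, 84 of 120 between the controls and 113 of 130 between the mutants kept their direction and side of the threshold. *Idh* kept both in double mutants and for the difference under each of these. In 38 of 40 combinations of gene and group the spread of replicates exceeded counting error, the exceptions being *Idh3a* and *Idh3g* in double mutants. Where a value moved, the cause was not tested.

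With a fold limit of log2 1, 0 of the 10 genes were called in each comparison, where 1.52% to 6.86% of all genes were higher and 3.35% to 5.94% lower. With library totals, the median of all genes moved by 0.16 in both contrasts of mutants with controls and 0.13 between controls and between mutants, the calls over all genes were 3571 higher and 1262 lower in *Gpdh1* mutants and 3705 and 1463 in double mutants, and of the 10 genes 4 were higher and 0 lower in *Gpdh1* mutants, 2 and 3 in double mutants, 8 higher between controls and 3 higher between mutants, where 31.1% and 32.3% of all genes were higher. There, *Pdhb* (0.12), *mAcon1* (0.14) and *Idh3b* (0.066) turned positive in *Gpdh1* mutants, *Pdhb* (0.11) and *Nc73EF* (0.10) in double mutants, and *muc* (0.10), *kdn* (0.056), *mAcon1* (0.053) and *Idh3b* (0.076) between mutants. Among other genes *SdhA* (0.074), *SdhD* (0.083), *srl* (0.032), *TFAM* (0.016) and *porin* (0.087) turned positive in *Gpdh1* mutants and *CG7430* (0.069) in double mutants. RLE scaling, no filter and at least 10 counts in every library each left 2 genes higher between controls, where 12.4%, 9.19% and 12.3% of all genes were. Between mutants, DESeq2 called 2 higher and no filter 0, where 18.5% and 13.8% of all genes were. With all libraries in 1 fit, 2 were lower in *Gpdh1* mutants, where 20.9% of all genes were. The difference of *Pdhb* was 0.0225 with RLE, 0.0224 with DESeq2, 0.0196 with summed double mutant libraries, 0.0015 with no filter and 0.03 with at least 10 counts, where *Nc73EF* between controls was -0.0102. With summed double mutant libraries, which left 1 library in that group, *Idh* kept its direction in double mutants and for the difference.

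Deviations of same-numbered libraries from their group means correlated between -0.221 and -0.097 in one cross and -0.011 and 0.019 in the other. With 3 libraries per group these values cannot settle whether equal replicate numbers share a culture or batch, and the labels do not say. With the number as a block, 1 gene rose and 0 fell in *Gpdh1* mutants, where 14.4% of all genes rose and 16.2% fell. In double mutants 0 rose (all genes: 22%), 2 were higher between controls (11.8%) and 0 between mutants (17.6%).

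Leaving out 1 library gave 1 to 2 genes higher and 0 to 2 lower in *Gpdh1* mutants, 0 to 1 higher and 6 lower in double mutants, 1 to 3 lower for the difference, 1 to 4 higher between controls, and 0 to 1 higher and 1 to 2 lower between mutants. Over all genes the shares were 12.2% to 15.7% and 13.9% to 18%, then 19.9% to 28.9% and 19% to 28.7%. They were 8.65% to 15.5% for the difference, 8.86% to 13.6% between controls, and 15.3% to 16.1% and 14.9% to 16.6% between mutants. Values that changed sign then ranged, in *Gpdh1* mutants, from -0.116 to 0.0131 (*Pdhb*), -0.0065 to 0.1126 (*kdn*) and -0.0415 to 0.0449 (*mAcon1*), for the difference from -0.0703 to 0.0831 (*Pdhb*) and -0.075 to 0.006 (*Idh3g*), from -0.1416 to 0.0143 (*Pdhb*, double mutants), -0.0153 to 0.0557 (*Nc73EF*, controls) and -0.0632 to 0.0118 (*muc*, mutants).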
